A study of Rattus norvegicus with 18 samples.

Results

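Tissue kallikreins are serine proteases encoded side by side in 1 gene cluster, and this account covers the 10 rows of a rat kidney expression table, of 32116 in all, whose symbol is Klk1 or begins with Klk1b or Klk1c. The genes were chosen by their levels: Klk1b3, Klk1 and Klk1c4 were picked because adenine-treated kidneys held less of them than untreated ones, so the difference between those groups is a description of the choice and carries no test. Whole kidneys were sequenced in 18 libraries, 6 per group. The NC group was untreated. Daily doses, in mg per kg, were 100 of adenine in the CKD group, and 100 of adenine with 300 of SZ-A in the SZ group. All CKD and SZ libraries therefore carry adenine, and there is no group with SZ-A alone. The labels give no strain, sex, age or duration, and the make-up of SZ-A is not stated in these sources. Nor do they state that libraries came from different animals, and the p-values cover only the spread among libraries, some of which may be technical. Adenine overload is a widely used way to injure rat tubules, and the model is limited by that single agent.

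In the kidney, tissue kallikrein is made mainly by the connecting tubule and secreted into the tubular fluid. There it cuts low molecular weight kininogen to release kinins, which act through the B2 and B1 receptors to widen vessels and favour sodium excretion and are broken down by kininases such as angiotensin-converting enzyme and neprilysin. The protease is also known to act on channels and pumps of the distal nephron, among them the epithelial sodium channel, the calcium channel TRPV5 and the colonic H,K-ATPase. Rats carry many closely related copies besides the kidney enzyme, several of them best known from salivary gland and prostate. The annotation in the table names the protein of Klk1b3 as kallikrein-1, that of Klk1 as glandular kallikrein-7 of submandibular gland and kidney, that of Klk1c9 as submandibular glandular kallikrein-9, that of Klk1c8 as prostatic glandular kallikrein-6 and that of Klk1c2 as tonin, an enzyme that forms angiotensin II. Klk1c4, Klk1c3, Klk1c10 and Klk1c6 share 1 protein name, glandular kallikrein-10, and Klk1c12 is named glandular kallikrein-12.

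All 10 rows lie on chromosome 1 of the build mRatBN7.2, between positions 94378054 and 94713308, a stretch of 335 kb with 5 members on each strand. Klk1b3 (ENSRNOG00000068069) spans 94709105 to 94713308 on the plus strand, and Klk1 (ENSRNOG00000068378) spans 94642687 to 94646754 on the same strand. Klk1c4 (ENSRNOG00000070291) spans 94434534 to 94438709 on the minus strand, and Klk1c9 (ENSRNOG00000067884) spans 94597359 to 94601245 on the plus strand. The gene lengths used for scaling were alike, 820 to 1095 bases, and 0 members overlapped another row. The stretch held 22 rows in all, and no row outside the family passed 0.415 FPKM (fragments per kilobase of gene, scaled for depth) in any library. Because the copies are closely related and the handling of reads that map to several places is not stated in these sources, reads may have been split among members. How alike their transcripts are was not measured. The reads summed over the family do not depend on how they were split within it, but would change if such reads were discarded or counted repeatedly. Low members next to abundant ones are uncertain.

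The start regions of the 3 genes named in the choice are shown because they show how alike the copies are. RefSeq promoter sequences (build GRCr8) could be matched by symbol for 9 of the 10 members, Klk1c9 not among them. Each sequence below runs 5′ to 3′ along the gene's strand, from 250 bases before the annotated start to 30 after it. Capitals mark a 24-base run that all 3 share and the 6 letters TTTAAA. The regions are chr1:103845397-103845676 on the plus strand for Klk1b3, chr1:103778902-103779181 on the plus strand for Klk1 and chr1:103575179-103575458 on the minus strand for Klk1c4.
Klk1b3: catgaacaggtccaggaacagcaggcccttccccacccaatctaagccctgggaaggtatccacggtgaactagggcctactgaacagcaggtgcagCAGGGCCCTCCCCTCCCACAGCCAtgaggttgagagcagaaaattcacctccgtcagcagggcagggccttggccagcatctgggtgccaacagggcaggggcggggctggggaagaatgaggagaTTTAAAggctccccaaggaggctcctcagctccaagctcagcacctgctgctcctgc
Klk1: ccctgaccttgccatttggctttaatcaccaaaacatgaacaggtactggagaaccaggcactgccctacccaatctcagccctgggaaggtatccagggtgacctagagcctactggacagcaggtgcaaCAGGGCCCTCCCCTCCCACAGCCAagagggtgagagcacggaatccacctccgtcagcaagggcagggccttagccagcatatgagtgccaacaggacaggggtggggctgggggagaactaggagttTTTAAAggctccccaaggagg
Klk1c4: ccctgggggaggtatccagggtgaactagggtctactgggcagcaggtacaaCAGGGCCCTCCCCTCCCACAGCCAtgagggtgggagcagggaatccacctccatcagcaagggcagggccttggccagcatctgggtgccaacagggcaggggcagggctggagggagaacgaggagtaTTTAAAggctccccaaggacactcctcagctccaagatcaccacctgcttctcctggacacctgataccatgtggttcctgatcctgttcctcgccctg
The shared run begins 153 bases upstream of the annotated start in Klk1b3, 119 in Klk1 and 198 in Klk1c4, so the annotated starts are offset from each other. TTTAAA, which is its own reverse complement, begins 27 bases upstream in Klk1b3, 69 upstream in Klk1c4 and 9 downstream in Klk1.

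Over 300-base windows, from 250 bases before the start to 50 after it, the 36 pairs of members were 51.4% to 92.0% identical in a global alignment, with a median of 69.4%. The 90 pairs of a member with another kallikrein gene were 41.5% to 50.9% identical, with a median of 46.6%. The longest stretch shared by a pair was 19 to 109 bases among members and 7 to 14 bases between a member and another kallikrein. Klk1b3 and Klk1 were 69.3% identical, Klk1b3 and Klk1c4 66.1% and Klk1 and Klk1c4 53.0%, and the closest pair was Klk1c4 with Klk1c3 at 92.0%. These figures depend on the offsets between the annotated starts. A 13-base run, AGGGCCCTCCCCT, was present in all 9 windows. Of the motifs searched on both strands, TTTAAA stood in 9 of 9 member windows and in 13.6% of 33469 promoters, and CCAAT stood in 8 of 9 and in 37.5%. TATAAA (14.2% of promoters), AGAACA (20.7%) and TGACGTCA (1.83%), which is its own reverse complement too, stood in 0 of 9. A match or its lack describes only the letters in this window.

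Depth was even, with 15354358 to 18532375 recovered reads per library. Kidney markers were present. The proximal tubule phosphate carrier Slc34a1 averaged 1674 FPKM in NC, uromodulin (Umod) 829, Aqp2 167, Slc12a1 161 and the podocyte gene Nphs1 17.9. By the test used below 4 of these 5 fell in CKD, beside 26.0% of all tested genes. Libraries differed in other ways that bear on the results. Mitochondrial transcripts took 14.7% to 24.1% of reads in NC, 5.86% to 16.0% in CKD and 11.1% to 18.4% in SZ. Values followed gene length most in CKD 5, SZ 3 and CKD 2, at -0.32, -0.25 and -0.21 log2 units for each doubling of length, against 0.0085 to 0.12 in the others apart from CKD 1 at -0.10. Ribosomal RNA genes stood highest in CKD 5, at 1741 ppm of reads, then in CKD 6 at 809, and reached at most 248 elsewhere. The part of these measures in the results was not tested.

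Klk1b3, the most abundant member in each group, ranked 80 among all 32116 rows by mean FPKM in NC, 1335 in CKD and 581 in SZ. Its lowest, median and highest FPKM were 288, 500.2 and 645 in NC, 16.8, 37.3 and 103 in CKD, and 49.3, 85.1 and 160 in SZ. Every NC library lay above every CKD and SZ library, while the CKD and SZ ranges overlapped. The group means were 495 ± 134 FPKM in NC, 45.0 ± 32.5 in CKD and 93.1 ± 38.3 in SZ (SD, n = 6 each).

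Klk1, the next most abundant member, had the same order of group means. Its lowest, median and highest FPKM were 207, 340 and 440 in NC, 9.39, 26.6 and 92.2 in CKD, and 44.9, 58.1 and 128 in SZ. The NC libraries again lay above all others, and the CKD and SZ ranges overlapped. Means were 333 ± 89.2 FPKM in NC, 36.4 ± 31.7 in CKD and 72.4 ± 34.1 in SZ (SD, n = 6 each).

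Klk1c4 differed most in relative terms. Its lowest, median and highest FPKM were 36.9, 60.0 and 152 in NC, 0, 0.127 and 1.79 in CKD, and 0, 1.28 and 7.67 in SZ. In NC it held 6691 reads over the group, against 62 in CKD and 219 in SZ, so its level in the adenine groups rests on few reads. CKD 3, CKD 5 and SZ 1 held 0 reads, and a count of 0 allows up to 0.153, 0.154 and 0.198 FPKM there, at 3 reads and for counting error only.

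Klk1c9 was the least abundant of the tested members in NC. Its lowest, median and highest FPKM were 4.20, 6.82 and 14.9 in NC, 0, 0.265 and 0.730 in CKD, and 0.162, 0.690 and 1.65 in SZ. The NC group held 646 reads of it, CKD 31 and SZ 76, and again no NC library overlapped the other groups.

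**Figure D1:**
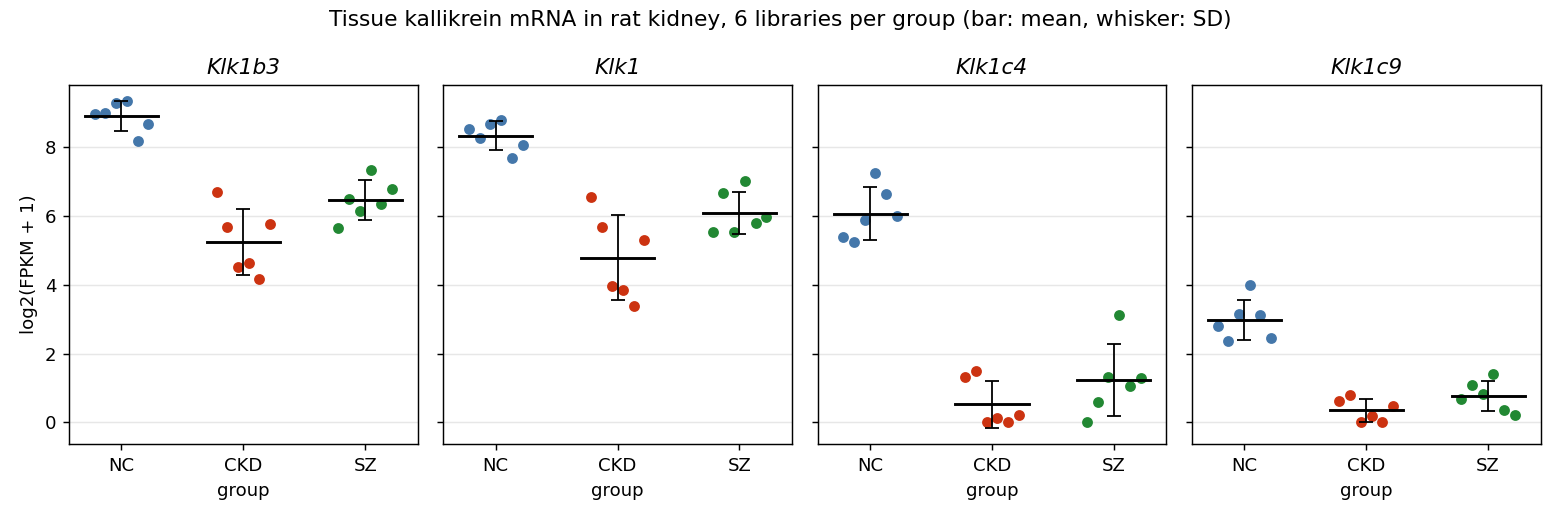
Each point is 1 library, plotted as log2(FPKM + 1) by group for Klk1b3, Klk1, Klk1c4 and Klk1c9, with a bar at the mean and whiskers of 1 SD over 6 libraries. In each panel the 6 NC libraries sit above all CKD and SZ libraries, and the CKD and SZ libraries overlap.

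The other 6 members were read only sparsely and were not tested. Klk1c3 had 139 reads in NC, 23 in CKD and 27 in SZ, with NC libraries at 0.737 to 2.62 FPKM and no library of the other groups above 0.537. Klk1c10 had 56, 7 and 3 reads, and 31 of the NC reads came from NC 4. Klk1c8 had 56, 2 and 20 reads, and SZ against CKD gave a ratio of 10.8 with a counting interval of 2.63 to 95.5, at the 95% level. That interval pools the reads of each group and leaves out the spread among libraries. Klk1c6 had 13 reads in NC, 8 of them from NC 3, and 0 in both other groups. With 3 reads taken in place of 0, the NC level was 5.51 times that of CKD and 5.09 times that of SZ. These ratios are no lower bounds, because they leave out the counting error of the 13 reads and the spread among libraries. Klk1c12 had 13, 0 and 1 reads, with the same ratio of 5.51 for NC over CKD and the same limits, and tonin (Klk1c2) had 1, 0 and 2. Thus 10 of 10 members had more reads in NC than in CKD, which the choice partly fixed, and 9 of 10 had more in NC than in SZ. In SZ against CKD 8 of 10 had more, with Klk1c10 the 1 that had fewer. These counts use reads not scaled for depth, down to 1 against 0 for Klk1c12 and 2 against 0 for Klk1c2 in SZ against CKD. The share over all genes was not counted. Copies that may share reads are not separate evidence, so nothing is read from these counts. How far reads were split among copies was not tested.

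Summed over all members, the family reached 914 ± 238 FPKM in NC, 82.6 ± 65.1 in CKD and 169 ± 72.6 in SZ (SD, n = 6 each). The sums ran from 604 to 1258 in NC, 26.7 to 198 in CKD and 95.4 to 299 in SZ, so that CKD held 9.03% and SZ 18.5% of the NC mean. Over the whole of each group the members took 0.0820% of reads in NC, 0.00939% in CKD and 0.0179% in SZ. Klk1b3 and Klk1 together held 90.9% of the members' reads in NC.

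The first comparison, CKD against NC, describes the effect of adenine. Mean FPKM in NC was 11.0 times that in CKD for Klk1b3, 9.17 times for Klk1, 126 times for Klk1c4 and 25.0 times for Klk1c9. On the log2(FPKM + 1) scale, which understates the change of low genes, the differences were -3.66 (SE 0.37) for Klk1b3, -3.55 (SE 0.44) for Klk1, -5.54 (SE 0.44) for Klk1c4 and -2.64 (SE 0.25) for Klk1c9. Counted from the most negative of 13851 genes, Klk1c4 ranked 1, Klk1b3 4, Klk1 5 and Klk1c9 19, and the median of all genes was -0.040. Among the 4 members with FPKM of at least 1 in at least 6 libraries, ranges did not overlap for 4, where 12.2% of all tested genes were lower without overlap and limma called 26.0% lower and 50.3% in either direction. Nothing is read from this, because the choice used the same contrast. Klk1c9 reached an FPKM of 1 in 2 libraries outside NC and so met the filter only through NC, where it had to be higher, while Klk1c4 reached it in 6 libraries outside NC.

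The second comparison, SZ against CKD, asks whether kallikrein mRNA differed when SZ-A was given with adenine. It shares the CKD libraries with the contrast that chose the genes and is no independent check. A choice made on low CKD values favours a higher value in SZ than in CKD. Klk1b3 rose, with a mean in SZ 2.07 times that in CKD and a log2 difference of 1.22 (SE 0.37, 95% interval 0.45 to 1.98, limma adjusted p = 0.040). Klk1 gave a difference of almost the same size that did not pass, 1.29 (SE 0.44, interval 0.38 to 2.21, unadjusted p = 0.0080, limma adjusted p = 0.061), with means differing by a factor of 1.99. All 6 SZ libraries lay above the CKD median for both genes, and 2 of 6 lay above every CKD library.

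For the members near 0 the intervals crossed 0. Klk1c4 gave 0.70 (SE 0.44, interval -0.23 to 1.63, limma adjusted p = 0.30) and Klk1c9 0.41 (SE 0.25, interval -0.11 to 0.94, limma adjusted p = 0.28), with 5 of 6 SZ libraries above the CKD median for each. The log2(FPKM + 1) scale understates the change of such low genes: their SZ means were 3.43 and 2.54 times the CKD means. These ratios rest on few reads, and 135 of the 219 Klk1c4 reads in SZ came from SZ 4. Hence 1 of the 4 tested members was called higher, beside 4.16% of all tested genes called higher and 11.0% called either way, and the median of all genes was 0.0055. That 1 passed and 3 did not does not show that they differ from each other. The Klk1b3 call was narrow: without CKD 2, CKD 5 and SZ 3, the libraries with the strongest length slopes, its difference was 1.12 (limma adjusted p = 0.091) and that of Klk1 1.27 (limma adjusted p = 0.088). It was lost when any 1 of CKD 3, CKD 4, CKD 5, SZ 2, SZ 4, SZ 5 or SZ 6 was left out, with limma adjusted p between 0.061 and 0.11.

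The third comparison, SZ against NC, shares the NC libraries with the contrast that chose the genes and is no independent check. Kallikrein mRNA stayed below the untreated level in rats given SZ-A with adenine. Klk1b3 was lower by a log2 difference of -2.44 (limma adjusted p = 1.3e-04), with the NC mean 5.32 times the SZ mean, and Klk1 by -2.26 (limma adjusted p = 0.0012), with a ratio of 4.61. Klk1c4 was lower by -4.84 (limma adjusted p = 1.1e-06), with the NC mean 36.7 times the SZ mean. Klk1c9 differed by -2.22, a ratio of 9.86, given with no test because it met the filter only through NC. For each of these genes 6 of 6 SZ libraries lay below every NC library. Of all tested genes, 21.1% were called in either direction, 8.61% were called lower and 5.70% were lower without overlap, and the median was -0.035.

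**Figure D2:**
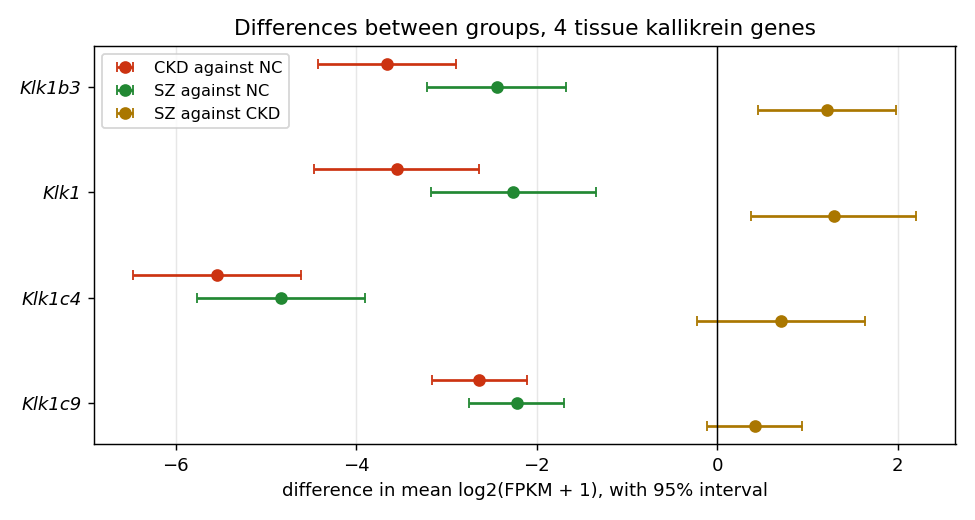
Differences in mean log2(FPKM + 1) between groups of 6 libraries, with 95% intervals, for the 4 tested genes. The intervals of CKD against NC and SZ against NC lie below 0, those of SZ against CKD lie above 0 for Klk1b3 (0.45 to 1.98) and Klk1 (0.38 to 2.21) and cross 0 for Klk1c4 and Klk1c9. The CKD against NC intervals, and that of Klk1c9 in SZ against NC, are drawn as a description only.

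The make-up of the family can be read within a library, where scaling between libraries cancels. Klk1 stood at 0.610 to 0.749 of Klk1b3 in NC (median 0.668), 0.559 to 0.987 in CKD (median 0.697) and 0.557 to 1.12 in SZ (median 0.741). The ranges overlapped in all groups, and Klk1 was below Klk1b3 in 17 of 18 libraries, SZ 2 being the exception. Klk1c4, by contrast, was 7.29% to 34.0% of Klk1b3 in NC (median 12.2%), 0% to 3.54% in CKD (median 0.346%) and 0% to 4.81% in SZ (median 1.34%). The NC range did not touch either of the others. As mean shares of the summed FPKM, Klk1b3 took 54.0% in NC, 57.5% in CKD and 55.6% in SZ, Klk1 36.4%, 41.2% and 42.7%, Klk1c4 8.45%, 0.487% and 0.954%, and Klk1c9 0.819%, 0.297% and 0.454%. These ratios use the same NC and CKD values as the choice and carry no test.

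**Figure D3:**
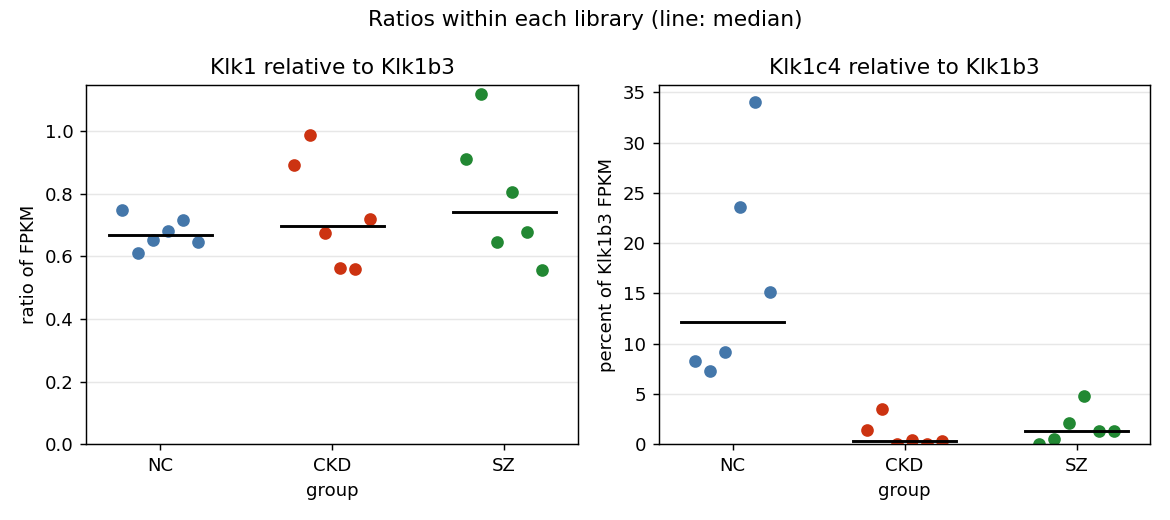
Ratios within each library, by group, with a line at the median of 6 libraries: FPKM of Klk1 over Klk1b3 on the left and Klk1c4 as a percent of Klk1b3 on the right. The groups overlap on the left, while on the right the NC libraries, at 7.29% or more, sit above all others, at 4.81% or less.

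Members also varied from library to library within a group. NC 4 was the highest NC library for 4 of 4 tested members and SZ 4 the highest SZ library for 4 of 4. In CKD the highest library was CKD 1 for Klk1b3 and Klk1 and CKD 2 for Klk1c4 and Klk1c9, and CKD 5 was the lowest for Klk1b3 and Klk1. CKD 5 also had the lowest mitochondrial share (5.86%) and the most ribosomal RNA. NC 4 (24.1%) and SZ 4 (18.4%) had the highest mitochondrial share of their groups, and NC 5, lowest in NC for Klk1b3 and Klk1, had the lowest (14.7%). In CKD the highest share was in CKD 2 (16.0%), ahead of CKD 1 (12.5%). In SZ the lowest was in SZ 3 (11.1%), while SZ 1, lowest for Klk1b3 and Klk1, had 15.3%. Whether these measures bear on the kallikrein levels was not tested. Over the 18 libraries, which share scaling and depth, Pearson's r of log2(FPKM + 1) was 0.99 between Klk1b3 and Klk1, 0.93 between Klk1b3 and Klk1c4 and 0.97 between Klk1c4 and Klk1c9. These values include the group difference used in the choice. After the group means were removed they became 0.95, 0.59 and 0.69. Within NC alone, Klk1b3 and Klk1c4 gave -0.03 over 6 libraries, and Klk1b3 and Klk1 gave 0.97.

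The genes whose pattern was most like a member's were taken from 11646 tested genes with a proper symbol, 3 per measure. Over 18 libraries r includes the NC to CKD difference used in the choice, so other genes with a like drop rank high. For Klk1b3 over 18 libraries they were Oxgr1, a receptor for 2-oxoglutarate (r = 0.98), Egf, the epidermal growth factor gene (0.97), and Atp6v1b1, a proton pump subunit (0.96). Egf averaged 407, 25.7 and 43.8 FPKM in NC, CKD and SZ, and Oxgr1 12.2, 1.38 and 2.67. For Klk1 they were the membrane protease gene Tmprss2 (0.98), Aif1l (0.97) and the ammonia transporter gene Rhcg (0.97). Klk1c4 was most like Tex14 (0.96), Rcan2 (0.94) and the proton pump gene Atp6v1c2 (0.94), and Klk1c9 like Atp6v1c2 (0.95), Fam81a (0.94) and Oxgr1 (0.94). By deviations from the group means, Klk1b3 was most like Aif1l (0.89), Tmprss2 (0.88) and Oxgr1 (0.86), and Klk1 like Tmprss2 (0.94), the retinal dehydrogenase gene Aldh1a1 (0.93) and Aif1l (0.92). The closest by deviations were lower for Klk1c4, with Rnf170 (0.81), Alg14 (0.78) and Gltpd2 (0.77), and for Klk1c9, with Ppm1j (0.83), Pdxp (0.77) and Pnpla2 (0.77). Klk1c4 and Klk1c9 rest on few reads in CKD and SZ. All these are the highest of 11646 values, and how high r would reach by chance was not tested.

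The other genes of the kinin system were read from fixed lists, beginning with the remaining kallikreins. Of 13 symbols, Klk4 to Klk15 and the plasma kallikrein gene Klkb1, 12 were found and 0 passed the filter. Klkb1 was the highest, at no more than 1.64 FPKM in any library. Of the 13 rows these symbols named, 6 held 0 reads in all libraries.

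Of the kininogen genes, Kng2l1 rose from 3.06 ± 1.89 FPKM in NC to 7.51 ± 5.50 in CKD (log2 difference 0.95, limma adjusted p = 0.043), and its SZ mean was 6.49. Whether tissue kallikrein cuts the product of Kng2l1 was not tested. The call was lost without CKD 2, CKD 5 and SZ 3. Kng1 was not tested, with means of 0.0515, 0.692 and 0.487 FPKM in NC, CKD and SZ. The B2 kinin receptor gene Bdkrb2 averaged 0.625 ± 0.220 FPKM in NC, 1.01 ± 0.437 in CKD and 1.54 ± 0.438 in SZ. On the log2 scale it stood above NC by 0.64 in SZ and by 0.29 in CKD. Both are given with no test, because no NC library passed 0.860 FPKM and Bdkrb2 met the filter only through the adenine groups. SZ against CKD (0.35, limma adjusted p = 0.15) did not pass. The B1 receptor gene Bdkrb1 averaged at most 0.0266 FPKM in any group.

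Of the enzymes that break down kinins, 7 of 9 were tested, and in CKD against NC 1 rose and 4 fell, beside 24.4% of all tested genes called higher and 26.0% called lower, with a list median of -0.60 beside -0.040 over all genes. Neprilysin (Mme) fell by 1.31 log2 units (115 to 48.6 FPKM, limma adjusted p = 0.032), prolyl oligopeptidase (Prep) by 1.24 (adjusted p = 0.0058), carboxypeptidase M (Cpm) by 0.93 (adjusted p = 1.5e-04) and aminopeptidase P (Xpnpep1) by 0.60 (adjusted p = 7.0e-04), all in limma. Endothelin-converting enzyme (Ece1) rose by 0.58 (limma adjusted p = 0.0041), and angiotensin-converting enzyme (Ace) averaged 6.04 FPKM in NC and 8.29 in CKD (0.52, limma adjusted p = 0.19). In SZ against CKD 0 of 7 passed in limma, with 2 at an unadjusted p under 0.05, and in SZ against NC Cpm alone was called, lower by -0.53 (limma adjusted p = 0.029). Under 4 other scalings between libraries (1 FPKM sum, written TPM, plain library totals, the FPKM sum without the 20 most abundant genes, and totals without mitochondrial reads) the counts for CKD against NC were 1 to 2 higher and 1 to 3 lower.

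Of the inhibitor list, 4 of 9 were tested. In CKD against NC 1 rose and 1 fell, beside 24.4% of all tested genes called higher and 26.0% called lower. The C1 inhibitor gene Serping1, which restrains plasma kallikrein, rose by 2.15 in CKD (38.5 to 178 FPKM, limma adjusted p = 3.3e-06) and remained above NC in SZ by 1.42 (limma adjusted p = 8.7e-04). Spink1, a trypsin inhibitor, fell by 0.97 in CKD (limma adjusted p = 0.0037). Spint1 and Spint2 did not pass, and in SZ against CKD limma called 0 of the 4, with 2 at an unadjusted p under 0.05. What depended on the scaling were Spint1, Spint2 and, in SZ against CKD, Serping1. In CKD against NC, Spint2 was called higher under each of the 4 other scalings (limma adjusted p between 1.4e-04 and 0.0043) and Spint1 under 2 of them. In SZ against CKD, Spint2 and Serping1 were called lower under plain library totals and TPM. Kallistatin (Serpina4), an inhibitor of tissue kallikrein, averaged at most 0.116 FPKM in any group and was not tested. Nor were Serpina3c, with means of 0 FPKM in NC, 0.279 in CKD and 0.164 in SZ, and Serpina5, at most 0.0430 in any library.

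The 5 distal nephron targets were all tested. The sodium channel subunit genes Scnn1a, Scnn1b and Scnn1g fell in CKD by 1.03, 0.67 and 1.07 log2 units (limma adjusted p = 2.1e-04, 0.016 and 1.9e-04). Atp12a, the colonic H,K-ATPase, fell by 2.08 (6.11 to 0.642 FPKM, limma adjusted p = 2.6e-06) and was the 1 target called in SZ against CKD, higher by 0.81 (1.98 FPKM in SZ, limma adjusted p = 0.044). Trpv5, the calcium channel, went the other way and rose from 4.74 ± 0.918 FPKM in NC to 10.8 ± 3.14 in CKD (1.02, limma adjusted p = 0.0030), with 16.6 ± 8.40 in SZ. Trpv5 was also higher in SZ than in NC by 1.50 (limma adjusted p = 4.3e-04), and Scnn1g (-0.57) and Atp12a (-1.27) were lower. Thus in CKD against NC 4 of 5 fell and 1 rose, beside 26.0% of all tested genes called lower and 24.4% called higher. Under the other scalings 3 rather than 4 targets fell in CKD. Of all tested genes, 4.16% were called higher in SZ against CKD, and 8.61% lower and 12.5% higher in SZ against NC.

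Other proteases that activate the sodium channel were 6, of which 5 were tested. In CKD against NC 3 of them fell and 1 rose, beside 26.0% of all tested genes called lower and 24.4% called higher. Of all tested genes, 4.16% were called higher in SZ against CKD and 8.61% lower in SZ against NC. In CKD, prostasin (Prss8) fell by 1.18 (106 to 48.7 FPKM, limma adjusted p = 8.0e-05), Tmprss2 by 0.98 and Furin by 0.38, while matriptase (St14) rose by 0.80. Furin depended on the scaling, with a difference of 0.07 when each library was set to 1 FPKM sum. Prss8 was also the 1 called in SZ against CKD, higher by 0.79 (80.6 FPKM in SZ, limma adjusted p = 0.018), and Tmprss2 the 1 called in SZ against NC, lower by -0.55 (limma adjusted p = 0.020). Under each of the 4 other scalings Tmprss2 was not called there and St14 was called higher instead (limma adjusted p between 0.011 and 0.045), and St14 was called lower in SZ against CKD under 3 of them.

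In whole kidney, fewer cells of a type and less RNA per cell cannot be told apart, so markers of the segments around the kallikrein-making cells were read beside the family. In CKD against NC, 5 of 5 distal convoluted tubule markers fell (median -1.24), 3 of 7 connecting tubule markers fell and 1 rose (median -0.87), 4 of 6 principal cell markers fell (median -0.70, 2 or 3 under the other scalings) and 7 of 7 intercalated cell markers fell (median -1.86, and again 7 under each of the 4 other scalings), beside 26.0% of all genes. Of the connecting tubule markers, calbindin (Calb1) fell from 204 ± 84.0 to 95.8 ± 81.7 FPKM (-1.42, limma adjusted p = 0.023), Hsd11b2 by 0.97 and the mineralocorticoid receptor gene Nr3c2 by 1.35, and Trpv5 was the 1 that rose. Summed connecting tubule markers ranged from 262 to 545 FPKM in NC, 103 to 363 in CKD and 176 to 388 in SZ, with 0 of 7 genes at 0 throughout, and those of the distal convoluted tubule from 136 to 303, 41.9 to 110 and 52.6 to 207. Principal cell markers summed to 228 to 411 FPKM in NC and 130 to 530 in CKD, and intercalated cell markers to 204 to 495 and 62.0 to 135. The NC and CKD sums overlapped for the connecting tubule and principal cells, but not for the distal convoluted tubule and intercalated cells. Those of the kallikreins did not overlap either, which the choice partly fixed. The part of cell numbers in the kallikrein difference was not tested.

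Among these genes and markers, Mme, Furin, Scnn1b and Aqp3 lost their call in CKD against NC under each of the 4 other scalings, Fxyd4 under 3, Calb1 under 2, and Prep, Xpnpep1 and Slc12a1 under TPM. Ace was called higher there under plain library totals and TPM, as was Bdkrb2, which met the filter only through the adenine groups. In SZ against NC, Cpm, Scnn1g, Tmprss2, Slc4a9, Cnnm2, Sall3 and Nphs1 lost their call under each of the 4, Fxyd4 under 2, and Nr3c2 and Trpm6 under TPM. There Kng2l1 and Spint1 were called higher under plain library totals and TPM, and Ece1 under TPM. S100a8 was called higher there too under plain library totals and TPM, but it met the filter through the adenine groups. In SZ against CKD, S100a8 was called lower under TPM, and Xpnpep1 higher with library sums taken without the 20 most abundant genes.

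In SZ against CKD, 4 of 7 intercalated cell markers rose, Atp6v1b1 by 0.84, Slc26a4 by 0.90, Slc4a1 by 1.13 and Slc4a9 by 1.11, beside 4.16% of all tested genes called higher, and limma called 0 of the 5 distal convoluted, 7 connecting tubule and 6 principal cell markers, with 2, 2 and 1 at an unadjusted p under 0.05. Without CKD 2, CKD 5 and SZ 3, 2 intercalated cell, 2 connecting tubule and 1 distal convoluted tubule markers were called higher. In SZ against NC 7 of 7 intercalated cell markers were lower (6 under each of the 4 other scalings), beside 8.61% of all tested genes. So were 4 of 5 for the distal convoluted tubule (1 or 2 under the other scalings) and 3 of 6 for principal cells (1 or 2 under the other scalings), and of the connecting tubule Nr3c2 was lower and Trpv5 higher.

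**Figure D4:**
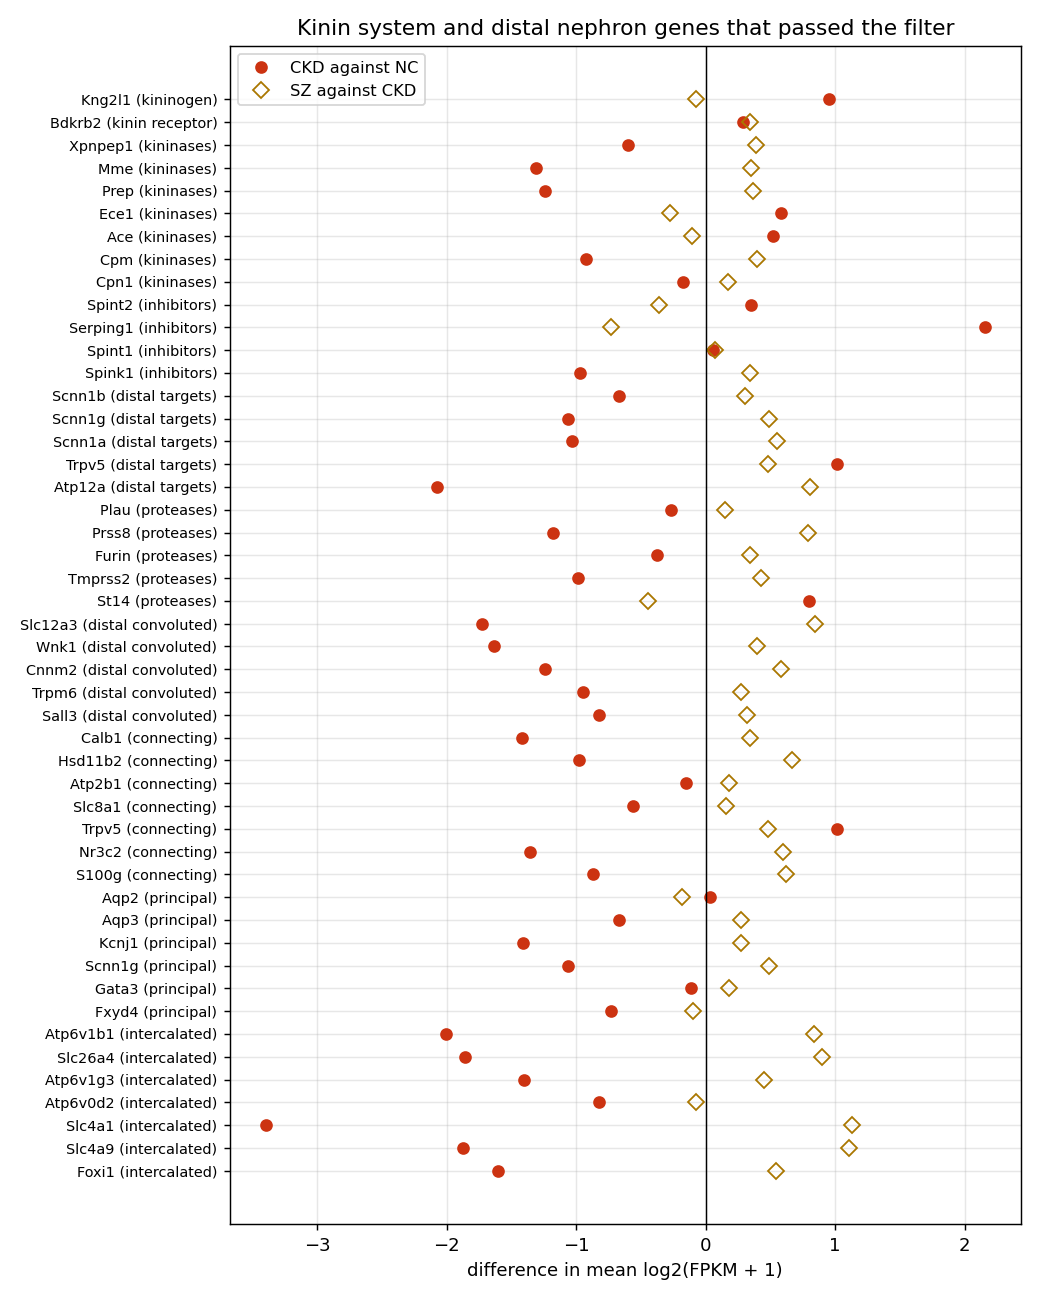
Difference in mean log2(FPKM + 1) for each kinin system, target, protease and distal segment gene that passed the filter, with filled circles for CKD against NC and open diamonds for SZ against CKD; 2 genes stand in 2 lists. Most circles lie left of 0, with Serping1 (2.15), Trpv5 (1.02), Kng2l1 (0.95), St14 (0.80) and Ece1 (0.58) the called exceptions to the right.

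Tissues and cells known for their own kallikreins or kallikrein-like proteases were read as a check. Salivary gland markers summed to at most 0.0761 FPKM in any library, pancreas markers to at most 0.560 and prostate markers to at most 0.306, with 3 of 4, 3 of 6 and 2 of 3 genes at 0 in all libraries, so their defining markers were at or near 0. Neutrophil markers summed to 0.357 to 3.48 FPKM in NC, 2.28 to 13.1 in CKD and 1.29 to 4.44 in SZ. The 1 that passed the filter, S100a8, was higher in CKD than in NC by 1.80, given with no test. It met the filter through the adenine groups, with an NC median of 0.356 FPKM and at least 1.72 in CKD and 1.27 in SZ. Mast cell markers, 0 of them tested, summed to at most 0.0709 FPKM in NC, 0.511 to 3.07 in CKD and at most 0.739 in SZ. The summed neutrophil and mast cell markers had their highest values in CKD, and their part in the kallikrein difference was not tested.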

How the data were processed

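Trizol extraction and an Illumina TruSeq RNA kit were used, per the labels' protocols. Reads were aligned with HISAT2 2.0.5 and the build is mRatBN7.2, per the submitters' processing notes. The counter, strand setting and annotation release were not given in the sources used here. The authors deposited 1 table of FPKM values for 32116 genes, and 0 of its columns could not be mapped to a sample. Reads per gene were recovered from the steps of the FPKM values, where 100% of values below 1000 reads were whole within 0.01. The sizes the authors divided by averaged 0.896 of the recovered totals in NC, 1.14 in CKD and 1.04 in SZ.

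Genes with FPKM of at least 1 in at least 6 of 18 libraries were tested (13851). The scale was log2(FPKM + 1), and the tool limma 3.58.1 under R 4.3.3. The fit had 3 group means over all libraries and an intensity trend, and was 2-sided. P-values were adjusted by Benjamini-Hochberg over all tested genes, and a gene was called at an adjusted p under 0.05. The limma step was checked on simulated data. The members, the 17 gene lists (107 symbols, 92 found, 51 tested) and the tests were chosen with earlier results of these data known. Every member and any gene of the lists could be named, as could the 3 genes most like each tested member by each of the 2 measures of likeness. Alternatives covered the offset, the filter, the scaling, the test, the libraries and the replicate number. Scaling to totals without mitochondrial reads, and the counts of called genes in each list without CKD 2, CKD 5 and SZ 3, were added after the data had been seen. Promoters were aligned with Biopython 1.88. Replicate numbers pair no libraries in the labels.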

Additional observations from a re-analysis of the deposited data

Results flagged for a closer look

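In 18 groups of 6 libraries, 2 held a library whose gap to its nearest neighbour exceeded 0.625 of the group's range (Dixon's limit), where chance flags about 1 in 20 groups. Klk1c4 in SZ 4 was 7.67 FPKM, while the other SZ libraries lay between 0 and 1.48. Klk1c9 in NC 4 was 14.9 FPKM, while the other NC libraries lay between 4.20 and 7.86. Both libraries were also the highest of their group for the other tested members.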

How the results depend on the processing

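None of the 12 differences of the 4 tested members reversed under the alternatives run. SZ against NC passed for Klk1b3, Klk1 and Klk1c4 under each setting (highest limma or permutation adjusted p 0.015), and SZ against CKD passed in 0 settings for Klk1c4 and Klk1c9 (lowest adjusted p 0.19 and 0.14). Klk1c9 had no value at a mean FPKM of at least 5. CKD against NC moved to -7.60 for Klk1c4 and -4.57 for Klk1c9 with log2(FPKM + 0.1), and to -8.54 and -5.40 with limma's voom on recovered reads. In SZ against CKD the largest differences under any setting were 2.33 for Klk1c4 and 1.92 for Klk1c9, beside 0.70 and 0.41 in the main fit.

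For Klk1b3 in SZ against CKD the difference no longer passed with no filter on low values (1.22, limma adjusted p = 0.12), by exact permutation (1.22, adjusted p = 0.18), with only the 2 groups fitted (1.22, limma adjusted p = 0.093) and without CKD 2, CKD 5 and SZ 3 (1.12). Leaving out 1 library gave 1.00 to 1.51, and it passed in 16 of 28 alternatives. For Klk1 it passed with array weights (1.37, limma adjusted p = 0.014) and with a lowess correction for gene length (1.41, limma adjusted p = 0.043), and leaving out 1 library gave 1.01 to 1.64, past the threshold without CKD 1, CKD 2 or SZ 3. The cause was not tested.

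Genes called numbered 6973 in CKD against NC, 1521 in SZ against CKD and 2919 in SZ against NC. A mean FPKM of at least 5 tested fewer genes and called 4447 in CKD against NC and 1627 in SZ against NC. For SZ against CKD, no filter gave 653, fitting only the 2 groups 554 and array weights 2830, and array weights gave 5492 for SZ against NC. The exact permutation test of SZ against CKD called 0 genes, with 3158 at an unadjusted p under 0.05 (4014 by limma). Leaving out 1 library gave 6372 to 7272 in CKD against NC, 533 (without SZ 4) to 3058 (without SZ 3) in SZ against CKD, and 2186 to 2851 in SZ against NC. In SZ against CKD it also gave 2798 without CKD 1, 1010 without CKD 3, 669 without CKD 5, 831 without SZ 1 and 850 without SZ 2.

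Scaling to 1 FPKM sum (TPM) moved the median gene in CKD against NC to 0.35 and plain library totals to 0.25, and the calls split 6676 higher to 1271 lower and 6042 to 1722, against 3378 to 3595. Klk1b3 stood at -3.21 and -3.32 there, and Klk1 at -3.11 and -3.22. Labels do not pair libraries by number, and 4 of 18 same-numbered pairs correlated above 0.1 (-0.36 to 0.23), with 0 libraries closest to their own number in both other groups. With a replicate block, Klk1b3 in SZ against CKD gave 1.22 (limma adjusted p = 0.055), and 6636, 1195 and 2584 genes were called in the 3 comparisons.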
